A study of Mus musculus with 27 samples.

Results

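The libraries described here were the 12 RNA-seq libraries of jejunal organoids from specific pathogen-free (SPF) mice, out of 27 libraries in the series. Organoids are self-organising epithelial cultures that grow from intestinal crypts and hold stem, absorptive and secretory cells. The 12 libraries were chosen by origin alone: they came from 6 cultures, 3 from mice of the facility SR (Z908, Z909 and Z910) and 3 from mice of the facility SE (Z911, Z912 and Z913). All donors were male C57BL/6J mice of 8 to 12 weeks, cohoused littermates within a facility, so each facility stands for few animals. Crypts were taken from the distal jejunum and grown in Matrigel, a basement membrane gel, up to passages 5 to 8. Every culture gave 2 libraries, one labelled untreated and one labelled as given 5 ng/ml of tumour necrosis factor (TNF) over 8 hours, and no allele or other agent is named for either. In bulk libraries of this kind, a change in the number of cells of a type and a change in RNA per cell cannot be told apart.

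TNF is a cytokine that binds its receptors on epithelial cells and activates the kinase complex IKK, which marks IkB proteins for destruction. The NF-kB transcription factors that IkB held back then enter the nucleus and switch on genes for chemokines, adhesion molecules, antimicrobial proteins and antigen presentation. Among their targets are genes for their own inhibitors, such as Nfkbia and Tnfaip3, which close a negative feedback loop.

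The sample labels and the names of the deposited data disagreed on the treatment. In all 6 cultures the suffix T, which the study uses for TNF-treated samples, stood in the data name of the library whose sample label reads untreated, while the sample titles follow the labels. Groups were taken from the sample labels. The library with the suffix is called T-coded (labelled untreated) and the other one uncoded (labelled TNF-treated), and each difference is the T-coded minus the uncoded value within a culture. Exchanging the sides would change the sign of each difference and nothing else.

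Nfkbia, which encodes the NF-kB inhibitor IkBα, had a lowest, median and highest value of 179.7, 209 and 222 CPM (read counts normalised to a common library total) in the T-coded libraries (labelled untreated) and of 28.2, 32 and 35.8 CPM in the uncoded libraries (labelled TNF-treated). Cyba, the membrane subunit of the NADPH oxidases, had 88.2, 119.8 and 152 CPM against 13.1, 18 and 27.4 CPM. Bcl3, an IkB-like co-regulator of NF-kB, had 41.8, 53.1 and 67.9 CPM against 14.7, 19.3 and 21.4 CPM. For all 3 genes the groups did not overlap and the T-coded library was higher in 6 of 6 cultures. These known NF-kB targets therefore went against the sample labels in each culture and with the suffix T. The fold change (6.46-fold for Nfkbia, 6.31-fold for Cyba and 2.88-fold for Bcl3) passed the test in each case, with an edgeR adjusted p of 9.1e-18, 5.5e-14 and 1.8e-07. Nfkbia lies on chromosome 12 (55489410 to 55492647, GRCm38), Cyba on chromosome 8 (122424776 to 122432930) and Bcl3 on chromosome 7 (19808462 to 19822770).

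**Figure D1:**
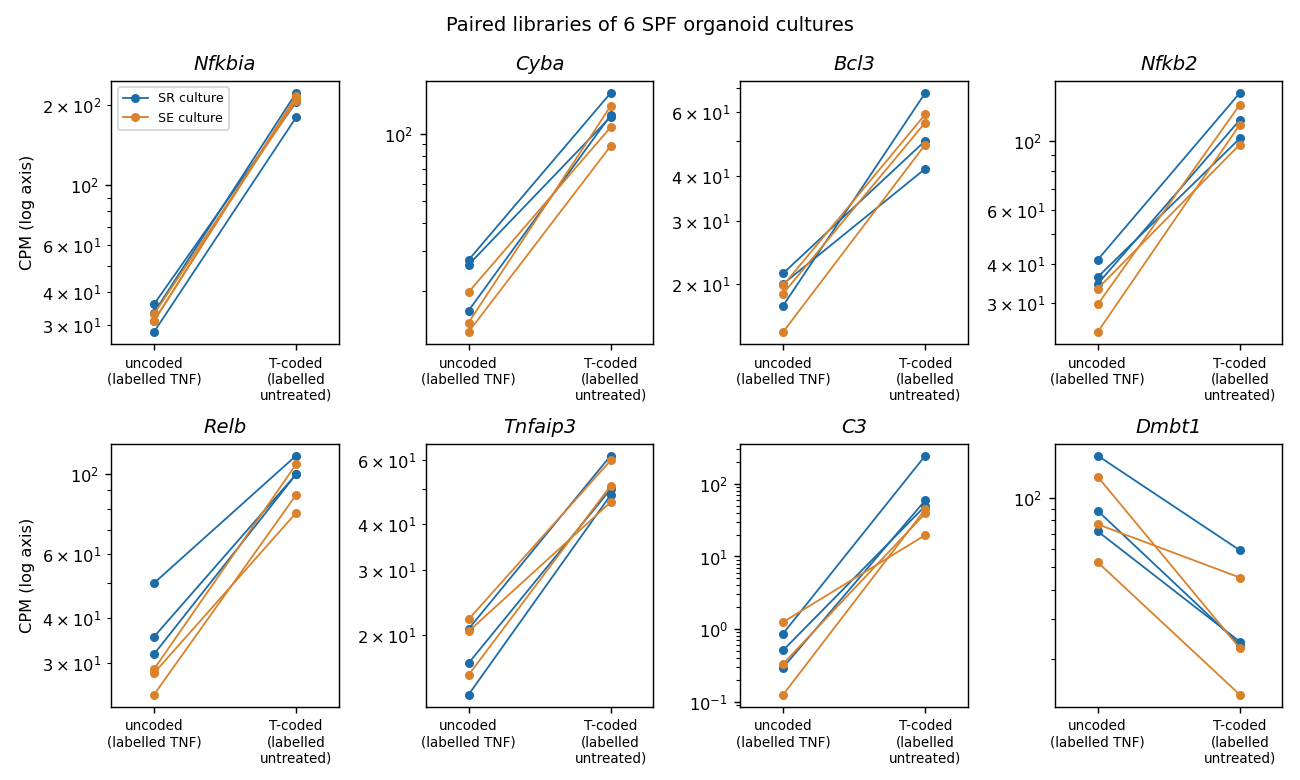
Normalised read counts (CPM, log axis) of 8 genes in the uncoded (labelled TNF-treated) and T-coded (labelled untreated) library of each of the 6 SPF organoid cultures, with 1 line per culture, blue for SR and orange for SE. For Nfkbia, Cyba, Bcl3, Nfkb2, Relb, Tnfaip3 and C3 the T-coded library is higher in 6 of 6 cultures, and for Dmbt1 it is lower in 6 of 6.

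Total gene counts lay between 18081246 and 30340478 in the T-coded libraries and between 11440041 (Z911) and 34826223 in the uncoded ones, so that 3 counts, taken as the detection floor, correspond to 0.0861 to 0.262 CPM. Epithelial defining markers (Epcam, Cdh1, keratins, Vil1, Cdx1, Cdx2, Hnf4a) summed to 7743 to 8927 CPM in the T-coded and to 8016 to 8607 CPM in the uncoded libraries, with 0 of 10 called. The 24 markers of immune, mesenchymal, endothelial and nerve cells summed to 20.5 to 36.9 and 19.7 to 32.7 CPM. Cd4, Cd8a, Ms4a1, Itgax, Adgre1, Cdh5 and Kdr had 0 counts in all 12 libraries. Other members were detected in every library, with the highest means for Pdgfrb (5.74 to 12.9 CPM), Vim (3.64 to 15.4 CPM) and Itgam (0.803 to 9.49 CPM).

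The T-coded library of Z908 stood apart. In it, 115 genes exceeded 5 CPM and lay more than 8-fold above every other library, against at most 4 such genes in any of the other libraries, and together they made up 0.503% of its normalised counts. A list of 22 hepatocyte genes, drawn up after this was seen, summed to 2356 CPM there and to 1.33 to 22.3 CPM in the other 11 libraries. All 22 were highest in this library, led by Alb, the serum albumin gene, at 590 CPM against at most 12.3 CPM elsewhere. The 4 globin genes of red blood cells summed to 64.2 CPM in it and to at most 0.0369 CPM elsewhere. The number of calls in SPF organoids and in each gene list was therefore also computed without Z908, and list members whose call changed are named. The promoter counts below were computed with all cultures only. Of the 115 genes, 18 were tested and 3 were called in the comparison (Mat1a, Ahsg and Hp, described with the complement genes), and the part of this library's makeup in other differences was not tested.

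**Figure D2:**
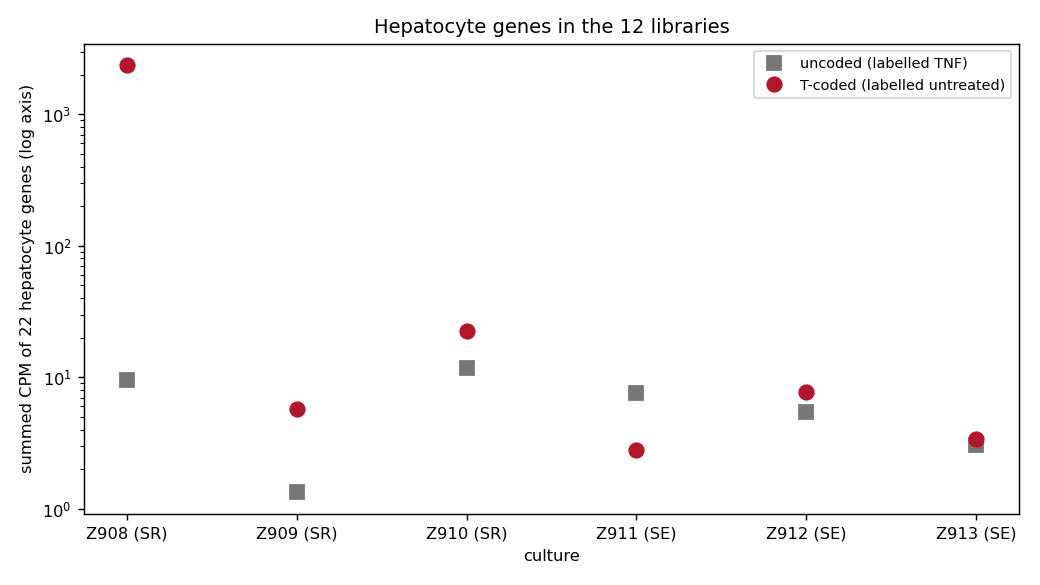
Summed normalised counts (CPM, log axis) of 22 hepatocyte genes in the T-coded (circles, labelled untreated) and uncoded (squares, labelled TNF-treated) library of each culture. The T-coded library of Z908 is at 2356 CPM and the other 11 libraries lie between 1.33 and 22.3 CPM.

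Promoters of the 20 genes of smallest p that were higher in all 6 cultures were examined for kB-like letters, since the NF-kB dimers bind sequences of this kind. The 250 bases before the RefSeq start sites (GRCm38.p6) were searched on both strands for GGGNNTTTCC and GGGNNTTCCC, motifs that can overlap. RefSeq windows were matched for 19 of the 20 genes, and 9 of these 19 (47.4%) held a match in at least 1 window, against 3.98% of the 9663 tested genes with a window. Among all genes called higher 29 of 149 (19.5%) held one, and among those called lower 3 of 46 (6.52%). A match describes letters and not a bound site. The 6 windows below are shown because their genes represent the feedback, cell death, stem cell and antimicrobial groups, in the sense of the gene, 5′ to 3′, with the matches in capitals.
Nfkbia (chr12:55492648-55492897, minus strand): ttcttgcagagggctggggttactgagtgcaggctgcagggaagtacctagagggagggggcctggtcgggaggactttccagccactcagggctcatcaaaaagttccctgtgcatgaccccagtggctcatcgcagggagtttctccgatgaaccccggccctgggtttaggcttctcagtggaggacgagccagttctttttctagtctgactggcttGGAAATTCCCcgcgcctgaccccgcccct
Nfkb2 (chr19:46304487-46304736, plus strand): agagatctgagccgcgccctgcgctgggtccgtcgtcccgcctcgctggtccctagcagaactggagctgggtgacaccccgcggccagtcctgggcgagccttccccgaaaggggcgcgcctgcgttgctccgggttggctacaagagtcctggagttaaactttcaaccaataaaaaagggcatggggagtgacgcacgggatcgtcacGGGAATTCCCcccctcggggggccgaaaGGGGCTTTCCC
Tnfaip3 (chr10:19015411-19015660, minus strand): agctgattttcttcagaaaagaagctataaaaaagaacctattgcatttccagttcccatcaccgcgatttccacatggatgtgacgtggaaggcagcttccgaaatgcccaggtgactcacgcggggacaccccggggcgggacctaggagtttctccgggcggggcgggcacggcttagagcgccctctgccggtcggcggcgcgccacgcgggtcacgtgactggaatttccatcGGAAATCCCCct
Casp4 (chr9:5308599-5308848, plus strand): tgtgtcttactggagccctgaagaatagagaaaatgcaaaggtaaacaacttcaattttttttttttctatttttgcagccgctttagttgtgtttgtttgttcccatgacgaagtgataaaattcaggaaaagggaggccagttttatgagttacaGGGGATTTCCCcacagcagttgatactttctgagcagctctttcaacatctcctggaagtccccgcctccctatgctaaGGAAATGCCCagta
Olfm4 (chr14:80000052-80000301, plus strand): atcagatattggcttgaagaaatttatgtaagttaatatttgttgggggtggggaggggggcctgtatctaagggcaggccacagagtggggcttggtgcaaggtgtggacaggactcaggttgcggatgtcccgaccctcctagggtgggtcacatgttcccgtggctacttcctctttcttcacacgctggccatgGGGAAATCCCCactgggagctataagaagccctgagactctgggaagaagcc
Reg3g (chr6:78468875-78469124, minus strand): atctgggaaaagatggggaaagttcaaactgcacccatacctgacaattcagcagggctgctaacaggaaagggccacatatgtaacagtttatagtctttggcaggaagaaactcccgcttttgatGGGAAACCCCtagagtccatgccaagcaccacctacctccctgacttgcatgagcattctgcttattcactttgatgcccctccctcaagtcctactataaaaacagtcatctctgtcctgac
The match of Nfkbia begins 29 bases before the start site, that of Tnfaip3 12 bases, the upstream ones of Nfkb2 and Casp4 39 and 93 bases, that of Olfm4 52 bases and that of Reg3g 123 bases before it. Cyba, Bcl3, C3, Clca3b and Ikbke had no such letters in this window.

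Of 12352 genes tested, 244 were called at an edgeR adjusted p under 0.05 (1.98%). Of these, 185 were higher (1.5% of genes tested) and 59 lower (0.478%) in the T-coded libraries (labelled untreated) than in the uncoded ones (labelled TNF-treated). The higher genes moved further: their median fold change was 1.57-fold, 51 exceeded 2-fold and 19 exceeded 4-fold, whereas the lower genes had a median of 1.28-fold and 2 of them exceeded 2-fold. Among those above 4-fold, Saa3, Stx11, Hp, Mat1a, Ahsg, H2-M2 and Cd74 had at most 2 counts in each uncoded library. They passed the filter of 10 or more counts through the T-coded side alone, so a call could only be higher. The direction held in all 6 cultures for 164 of the 185 and for 51 of the 59 genes. Groups did not overlap for 89 of the higher and 7 of the lower genes, where 1.02% of all genes tested had groups that did not overlap. Without Z908, 181 genes were called higher and 56 lower, and 164 of the 185 and 43 of the 59 genes were among them. Leaving out Z913 reduced the calls most, to 124 higher and 22 lower, and without Z909 or Z910 the lower calls fell to 37 and 32. Without the culture as a block, the number of calls fell to 101, 95 higher and 6 lower.

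**Figure D3:**
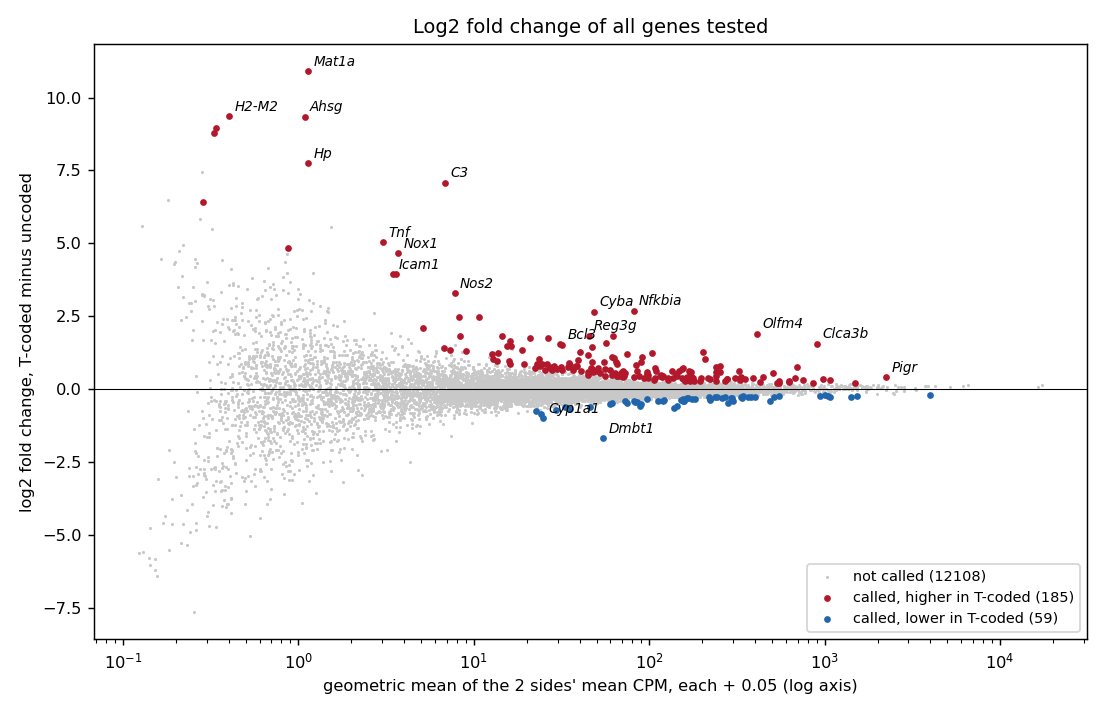
Log2 fold change (T-coded minus uncoded libraries) of the 12352 genes tested against the level of each gene (geometric mean of the mean CPM of both sides, each plus 0.05, log axis). The 185 called genes that were higher (red) reach larger fold changes than the 59 that were lower (blue), and Mat1a, Ahsg and Hp rest on the T-coded library of Z908. Those genes, with Saa3, Stx11, H2-M2 and Cd74, passed the count filter through the T-coded side alone.

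Among the NF-kB subunits and IkB proteins, 4 of 11 genes were called (36.4%, against 1.98% of all genes tested). All were higher in the T-coded libraries (labelled untreated). The median log2 fold change of the list was 0.88, against −0.02 over all genes tested. The lists here and below were chosen with earlier results of these data known, so their shares describe the members only. Nfkb2, the precursor of the p52 subunit, rose 3.54-fold, from 33.3 ± 5.86 to 117 ± 17.4 CPM (SD, n = 6). Relb, its usual partner, rose 2.98-fold, from 33.1 ± 8.98 to 97 ± 12.4 CPM. The groups did not overlap for either gene, with Nfkb2 at 97.5 CPM or above on the T-coded side and at 41.4 CPM or below on the other. The canonical subunits did not pass the test: Rela stood at 55.4 against 43 CPM (edgeR adjusted p = 0.13), Nfkb1 at 104 against 95.4 CPM (0.71) and Rel at 21.5 against 13.6 CPM (0.12), the last with groups that did not overlap. Of the other inhibitors, Nfkbib had 32.9 ± 7.67 against 22.1 ± 7.03 CPM and missed the threshold (0.081), but was called without Z908 (0.011), where 5 members of the list passed.

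Of 19 genes tested between the TNF receptors and IKK, 1 was called (5.26%, against 1.98% of all genes tested). This was Ikbke, an IKK-related kinase that acts in interferon and NF-kB signalling, at 134 ± 32.7 against 62 ± 7.15 CPM (2.13-fold, edgeR adjusted p = 1.3e-07), and the median log2 fold change was 0.01. The receptor Tnfrsf1a stood at 74.9 and 73.9 CPM. Among 14 negative regulators and TRAF adaptors, 3 were called (21.4%), all higher, with a list median of 0.45. Tnfaip3, the ubiquitin-editing enzyme A20, had 46, 50.4 and 61.6 CPM (lowest, median, highest) against 13.7, 18.6 and 22 CPM. Its partner Tnip1 rose 2.1-fold, to 90.9 ± 14.2 from 43 ± 3.97 CPM. Birc3, the ubiquitin ligase cIAP2 of the receptor complex, rose 2.24-fold, to 66 ± 9.98 from 30.2 ± 8.43 CPM. The groups did not overlap for any of these 3 genes, and the T-coded library was higher in 6 of 6 cultures. Without Z908, the adaptor Traf3 was called as well, so that 4 members passed. Socs3, a feedback inhibitor of cytokine receptors, stood at 11.6 and 11.7 CPM.

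Both cell death lists had 3 of 15 tested genes called (20%), 2 higher and 1 lower, against 1.98% of all genes tested. Among the death receptor and survival genes, Bcl2l1, which encodes the survival protein Bcl-xL, rose 1.67-fold (60.1 ± 6.91 against 36.1 ± 4.36 CPM) and Tnfsf10, the death ligand TRAIL, rose 1.62-fold (70.7 ± 9.06 against 43.7 ± 6.57 CPM). The groups did not overlap for either gene. Xiap, a caspase inhibitor, was lower by 1.32-fold (97.2 ± 18.1 against 128 ± 18.9 CPM, edgeR adjusted p = 0.025). Its T-coded library of Z912, at 134 CPM, was above the others, which lay between 85.7 and 92.9 CPM, and the culture Z912 went the other way. The call of Xiap was lost without Z909, Z910, Z911 or Z913 (0.13 to 0.15) and without the culture block (0.23). Among the inflammasome and gasdermin genes, Casp4, which senses cytosolic lipopolysaccharide, rose 3.37-fold, with 32.8, 50.9 and 59.5 CPM against 10.6, 13.7 and 20.8 CPM. Gsdmd, the pore former that Casp4 cleaves, rose 3.58-fold, with 15.1, 29.7 and 43.4 CPM against 6.63, 7.14 and 8.66 CPM. For both genes each T-coded library (labelled untreated) was above each uncoded library. Naip6, a sensor of bacterial flagellin, was lower by 1.32-fold (259 ± 42.6 against 345 ± 71.7 CPM), but it has near-identical paralogs and how reads were shared among them is not stated, and its call was lost without the block (0.31). Casp1 stood at 98.4 against 89.8 CPM and Il18 at 3.3 against 4.44 CPM, and neither passed the test. The list medians were 0.15 and 0.13.

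Of 28 cytokine and chemokine genes measured, 16 were too low to be tested. Of the 12 tested, 3 were called (25%, against 1.98% of all genes tested), all higher. Ccl20, which attracts CCR6-positive lymphocytes and dendritic cells, had 2.28, 11.4 and 24.2 CPM in the T-coded libraries (labelled untreated) and 0, 1.02 and 1.99 CPM in the uncoded ones. The transcript of Tnf itself had 7.99, 11.6 and 20.8 CPM against 0, 0.355 and 2.14 CPM. The groups of these 2 genes did not overlap, and the Tnf value of Z911 was above those of the other T-coded libraries, which lay between 7.99 and 11.9 CPM. Cxcl16, a membrane-bound chemokine, rose 2.37-fold (21 ± 13.8 against 8.85 ± 5.63 CPM), with overlapping groups but a higher T-coded library in 6 of 6 cultures, and its call was lost without the culture block (edgeR adjusted p = 0.3). Cxcl10 (0.926 against 0.0222 CPM) and Cxcl1 (0.747 against 0.0498 CPM) stayed near the detection floor in the uncoded libraries and did not pass the test.

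The complement and acute-phase genes had 5 of 11 tested members called (45.5%, against 1.98% of all genes tested). All 5 were higher, and the median log2 fold change was 1.05. C3, the central complement protein, was near absent in the uncoded libraries (0.125, 0.422 and 1.25 CPM) and had 19.7, 47.1 and 244 CPM in the T-coded ones (labelled untreated). The groups did not overlap, and the highest value was that of Z908, the library with the hepatocyte genes, while the other 5 lay between 19.7 and 59.3 CPM. C3 was 136-fold higher with all cultures (edgeR adjusted p = 5.5e-14) and 102-fold higher without Z908 (1.1e-14). Pigr, the receptor that carries IgA across the epithelium, rose 1.34-fold from 1942 ± 70 to 2606 ± 239 CPM, and Pglyrp1, which binds bacterial peptidoglycan, rose 2.07-fold from 146 ± 37.7 to 298 ± 55.1 CPM. For both, the T-coded library was higher in 6 of 6 cultures and the groups did not overlap. Saa3, a serum amyloid A, had 26 to 122 counts in each T-coded library and 0 counts in each uncoded one, at least 117-fold higher when the floor of 3 counts is set over the uncoded group. It passed the count filter through the T-coded side alone, so a call could only be higher.

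Hp, the haemoglobin-binding protein haptoglobin, belonged to the 5 called complement and acute-phase genes through a single library. It had 97 CPM in the T-coded library of Z908 and at most 1.55 CPM in the other T-coded libraries, and without Z908 its log2 fold change was 3.38 ± 2.16 (SE, edgeR adjusted p = 0.61), so that 4 members of the list were called. Mat1a, which makes S-adenosylmethionine in the liver, and Ahsg, the plasma protein fetuin-A, had the same pattern. Their highest values were 135 and 105 CPM, both in Z908, against at most 1.37 and 1.18 CPM in the other T-coded libraries. Neither gene passed the filter without Z908, and DESeq2 called none of Hp, Mat1a and Ahsg with all cultures (adjusted p 0.071 to 0.78). All 3 had at most 2 counts in each uncoded library and passed the filter through the T-coded side alone.

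Of 9 oxidase and nitric oxide genes tested, 4 were called (44.4%, against 1.98% of all genes tested). All 4 were higher in the T-coded libraries (labelled untreated), beside a list median of 0.37. Apart from Nos2 they belong to the epithelial NADPH oxidase: Cyba, described above, the catalytic subunit Nox1 and its organiser Noxo1. Nox1 had 3.44, 14.6 and 20.5 CPM against 0, 0.513 and 2.68 CPM, and Noxo1 rose 1.92-fold, from 65.9 ± 23.3 to 122 ± 20.9 CPM. Nox1 had groups that did not overlap, whereas the uncoded library of Z911, at 109.9 CPM of Noxo1, lay within the T-coded range. Nos2, the inducible nitric oxide synthase, rose 9.82-fold, with 11.9, 21 and 32 CPM against 0.673, 1.72 and 6.39 CPM and no overlap. Duox2, the other epithelial oxidase, stood at 8.25 and 6.58 CPM and did not pass the test.

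Among 8 tested Reg and other antimicrobial lectins, Reg3g, Lgals9 and Itln1 were called higher (37.5%, against 1.98% of all genes tested). The list median was 0.29. Reg3g, a C-type lectin that kills Gram-positive bacteria, had 61.7, 78.5 and 109 CPM against 12.1, 21 and 43.6 CPM (3.58-fold), without overlap. Its neighbour in the family Reg3b did not follow, at 23.6 against 24.8 CPM (edgeR adjusted p = 0.99). Lgals9, a galectin, rose 1.51-fold from 194 ± 11.9 to 294 ± 36.1 CPM. Itln1, a lectin of Paneth and goblet cells, rose 1.3-fold (188 ± 80.3 against 144 ± 60.4 CPM), a difference that is smaller than the spread between cultures but had the same sign in 6 of 6. Its call was lost without Z909 (edgeR adjusted p = 0.054) and without the culture block (0.86).

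Antigen presentation by MHC class I had 7 called genes of 25 tested (28%, against 1.98% of all genes tested). All 7 were higher in the T-coded libraries (labelled untreated), and the list median was 0.43. B2m, the invariant light chain, rose 1.54-fold, with 364, 403 and 454 CPM against 229.7, 258 and 317 CPM. Tapbp, the chaperone tapasin, rose 2.32-fold, with 86.2, 111 and 145 CPM against 35.1, 49.2 and 59.7 CPM. Psme2, a proteasome activator subunit, rose 1.56-fold from 87.1 ± 8.81 to 137 ± 20.9 CPM. None of these 3 genes had overlapping groups. The heavy chains H2-K1 (1.31-fold), H2-D1 (1.39-fold) and H2-Q4 (1.83-fold) were called as well, but reads of these paralogs may be shared, and H2-Q4 was not called without Z913 (edgeR adjusted p = 0.062). H2-M2, a non-classical heavy chain, had 25 to 194 counts in each T-coded library and 0 counts in each uncoded one, at least 179-fold higher. The MHC class II invariant chain Cd74 had 15 to 116 counts against 0 counts, at least 119.6-fold higher. H2-M2 and Cd74 passed the count filter through the T-coded side alone, so a call could only be higher. Tap1 (19.6 against 16.8 CPM), Psmb8 (2.04 against 0.425 CPM) and Psmb9 (3.3 against 1.51 CPM), a transporter and proteasome subunits of the same pathway, did not pass the test.

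Of 28 tested interferon signalling and response genes, 3 were called higher and 1 lower (14.3%, against 1.98% of all genes tested). The list median was 0.30. Irf1, a transcription factor that NF-kB induces, rose 2.78-fold, with 23.4, 25.6 and 32.9 CPM against 4.11, 10.1 and 14.3 CPM. The chains of the interferon gamma receptor rose by less, Ifngr2 by 1.29-fold (144 ± 14.5 against 112 ± 16 CPM) and Ifngr1 by 1.21-fold (214 ± 24.1 against 176 ± 12.8 CPM). Irf8, a relative of Irf1, fell 1.33-fold to 135 ± 19.2 from 179 ± 21 CPM, in 6 of 6 cultures. The calls of Ifngr1, Ifngr2 and Irf8 were lost without the culture block (0.089 to 0.27), and that of Ifngr1 also without Z910, Z912 or Z913 (0.11 to 0.16). Ifit3, an interferon-induced antiviral gene, was called only without Z908 (edgeR adjusted p = 0.02, against 0.17 with all cultures). It had 0 CPM in the T-coded library of Z908 and 0 to 6.36 CPM in the other T-coded libraries. Its uncoded mean was 0.00989 CPM, so it passed the filter through the T-coded side alone.

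**Figure D4:**
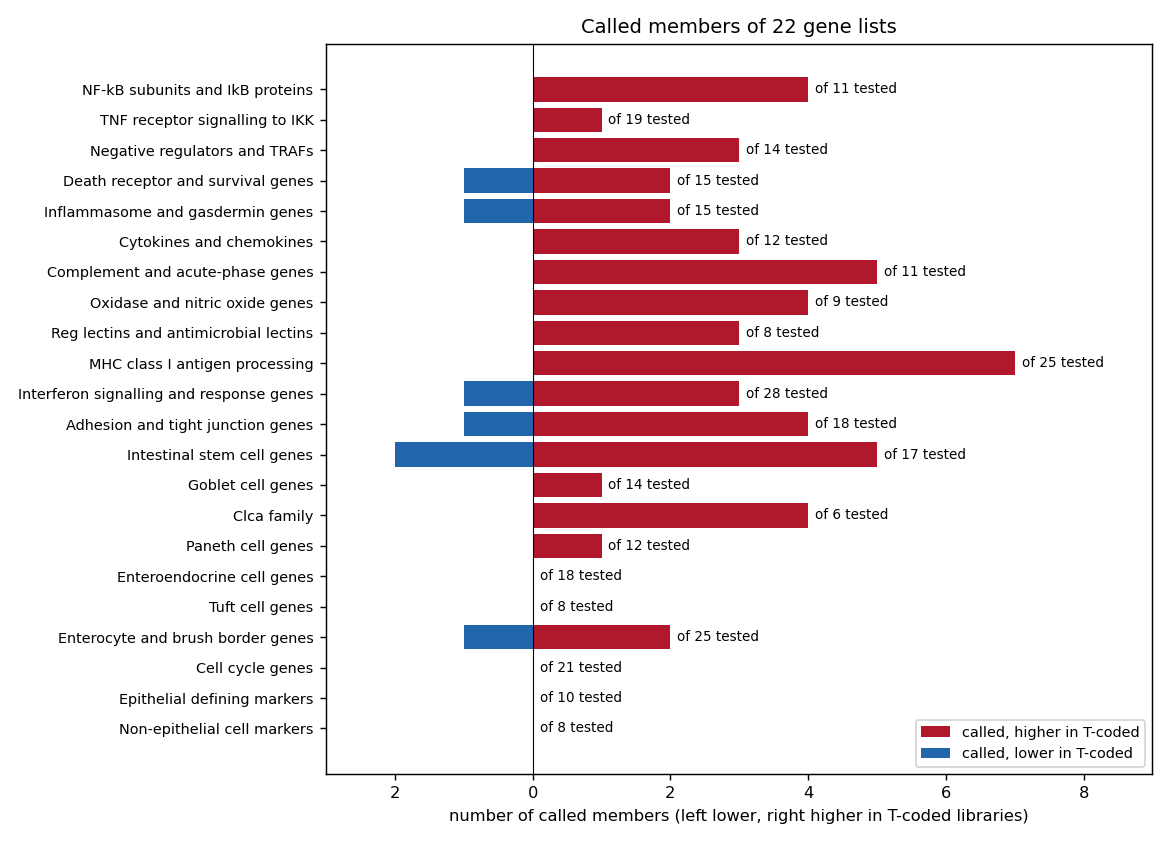
Number of called members in each of 22 gene lists, to the right those higher and to the left those lower in the T-coded libraries (labelled untreated), with the number tested printed beside each bar. Of all genes tested, 1.98% were called. The MHC class I list has the largest number of higher genes (7 of 25), the stem cell list has 5 higher and 2 lower, and the enteroendocrine, tuft, cell cycle, epithelial and non-epithelial lists have 0.

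Of 18 adhesion and tight junction genes tested, 4 were higher and 1 was lower (27.8%, against 1.98% of all genes tested). The list median was 0.03. Icam1, the leukocyte adhesion molecule, rose 15.3-fold, with 9.02, 12.5 and 15.8 CPM in the T-coded libraries (labelled untreated) against 0.236, 0.893 and 1.87 CPM, without overlap. F11r, the junctional adhesion molecule A, rose 1.45-fold (170.4 ± 18.7 against 118 ± 15.6 CPM). Cldn4, a sealing claudin, rose 1.72-fold and Tjp3, a scaffold of the junction, 1.22-fold, both with overlapping groups, and Z910 went the other way for Cldn4. Cldn2, which forms cation pores, was lower by 1.28-fold (196 ± 21.3 against 251 ± 31.4 CPM) in 5 of 6 cultures. The call of Cldn4 was lost without Z909 or Z913, that of Cldn2 without Z910, Z912 or Z913 and that of Tjp3 without Z909 or Z911, with edgeR adjusted p values of up to 0.13, 0.12 and 0.07. All 3 calls were lost without the block (0.34, 0.13 and 0.47).

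The intestinal stem cell genes split. Of 17 tested, 5 were higher and 2 lower in the T-coded libraries (labelled untreated). This was 41.2%, against 1.98% of all genes tested, and the list median was 0.06. Olfm4, a secreted glycoprotein of crypt base columnar stem cells and an NF-kB target, had 552, 809 and 1006 CPM against 128, 212 and 348 CPM (3.72-fold, edgeR adjusted p = 1.4e-16). Ascl2, a transcription factor of these cells, had 17.6, 27.7 and 39.4 CPM against 3.97, 7.62 and 16.3 CPM (3.14-fold). The groups did not overlap for either gene. Lgr5, the defining receptor of the same cells, stood at 137 against 146 CPM and did not pass the test (0.77). Smaller rises were seen for Slc12a2 (1.23-fold), Msi1 (1.88-fold) and Cd44 (1.36-fold), while Prom1 (1.19-fold) and Myc (1.33-fold) were lower, with overlapping groups for all 5. Leaving out a single culture ended the calls of Cd44 (Z909, Z910, Z912 or Z913), Prom1 (any but Z908) and Myc (Z909 to Z912), with edgeR adjusted p values of up to 0.19, 0.22 and 0.21. Without the culture block, Slc12a2, Cd44, Prom1 and Myc were not called (0.21 to 0.67). Among 21 cell cycle genes 0 were called, with a list median of 0.00 and Mki67 at 710.3 against 674 CPM.

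Of the lists of differentiated cells, 12% of enterocyte, 8.33% of Paneth cell and 7.14% of goblet cell genes tested were called, against 1.98% of all genes tested. Guca2a, the hormone guanylin that activates guanylate cyclase C, was the only call among 14 goblet cell genes and rose 1.76-fold, with 259, 306 and 511 CPM against 154, 169.9 and 268 CPM. Guca2b, uroguanylin, which lies beside it on chromosome 4, rose 1.7-fold (316 ± 145 against 181 ± 63.9 CPM). In both genes, both libraries of Z913 held the highest value of their side, so the groups overlapped, yet the T-coded library was higher in 6 of 6 cultures. Muc2, the main gel-forming mucin, stood at 74 against 79.6 CPM and the Paneth cell lysozyme Lyz1 at 126 against 122 CPM. Among 12 Paneth cell genes Itln1 was the only call, and 0 of 18 enteroendocrine and 0 of 8 tuft cell genes were called. The median log2 fold change was 0.45 for tuft, 0.32 for Paneth, 0.09 for enteroendocrine, 0.02 for goblet and 0.01 for enterocyte genes. Over all genes tested the median was −0.02. Of 25 enterocyte genes, the apolipoproteins Apoa1 (1.46-fold) and Apoa4 (1.29-fold) were higher and lactase, Lct, was lower by 1.34-fold, and the SD of the T-coded libraries exceeded each of these differences (Apoa1 615 ± 275 against 420.5 ± 191 CPM). Without the culture block the calls of Guca2b, Itln1 and these 3 genes were lost (edgeR adjusted p 0.15 to 0.97), that of Apoa4 also without Z913 (0.089) and that of Lct without Z909, Z910, Z911 or Z913 (0.064 to 0.15). Without Z908, Fabp1, a fatty acid carrier, joined Lct among the lower genes. Lct spanned 12.3 to 219 CPM in the T-coded and 25.3 to 246 CPM in the uncoded libraries.

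The Clca genes form a cluster on chromosome 3 that encodes secreted metalloproteases which modulate chloride channels. Of 6 tested, 4 were called (66.7%, against 1.98% of all genes tested), all higher in the T-coded libraries (labelled untreated). Clca3b (144822623 to 144849357, GRCm38) had 1136, 1630 and 1822 CPM against 393, 526 and 638 CPM, a 2.95-fold difference without overlap and with the second-smallest p of all genes (edgeR adjusted p = 5.4e-17). Clca4b rose 1.69-fold (877 ± 171 against 547 ± 217 CPM), Clca3a2 3.38-fold (38.3 ± 13.3 against 11.4 ± 3.89 CPM) and Clca3a1 1.66-fold (34.6 ± 7.28 against 21.2 ± 5.77 CPM). Clca3a1 was called in full and without Z911 but lost without any other culture (0.069 to 0.12). Neither Clca3a1 (0.13) nor Clca4b (0.18) was called without the block. These genes are tandem paralogs, and how reads that fit several of them were counted is not stated.

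Other genes with the smallest p values outside the lists were Tmem176b, Zyx and Mreg. Tmem176b, a membrane protein related to cation channels, rose 2.41-fold from 132 ± 31.1 to 310.3 ± 31.3 CPM. Zyx, zyxin of focal adhesions, rose 2.34-fold from 67.4 ± 10.3 to 158 ± 24.8 CPM. Mreg, a regulator of melanosome and lysosome transport, rose 2.76-fold from 28.4 ± 2.98 to 78 ± 5.65 CPM. All 3 had groups that did not overlap.

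Of the 59 genes that were lower in the T-coded libraries (labelled untreated), Dmbt1 had the largest fold. This scavenger receptor of the mucosal lining, which binds bacteria, had 14, 23.4 and 59.4 CPM against 52.7, 82.6 and 153 CPM, 3.18-fold lower, and was lower in 6 of 6 cultures although the groups overlapped through Z908 and Z913. Cyp1a1, the oxidase induced by the aryl hydrocarbon receptor, was 2.0-fold lower (18.4 ± 12.5 against 33.3 ± 11.2 CPM). Hif3a, a hypoxia-inducible factor, and Nr1i3, the xenobiotic receptor CAR, were 1.79-fold and 1.67-fold lower, and Nr1i3 was not called without Z908 (edgeR adjusted p = 0.068), Z909 or Z913 nor Hif3a without Z909, Z911, Z912 or Z913 (0.06 to 0.13). Tmem64, a membrane protein, was 1.63-fold lower (23.5 ± 9.25 against 36.3 ± 5.95 CPM) and Vps13c, a lipid transfer protein, 1.59-fold lower (28.6 ± 12.8 against 43.1 ± 11.1 CPM). The call of Tmem64 was lost without Z908, Z909, Z910 or Z913 (0.052 to 0.19) and that of Vps13c without Z913 (0.075). Pdss1, an enzyme of coenzyme Q synthesis, fell 1.54-fold to 111 ± 13.4 from 171 ± 13.1 CPM, and Fam117b fell 1.5-fold to 118 ± 15.3 from 176 ± 17 CPM, both without overlap. Cpt1a, which admits fatty acids to mitochondria, fell 1.49-fold (72.3 ± 14.8 against 107 ± 16.8 CPM), Grk6, a kinase of G protein-coupled receptors, 1.42-fold and Mal2, a protein of apical transport, 1.38-fold. The remaining genes of smallest p were Galnt7 (1.33-fold), Ccnd2, the cyclin D2 gene (1.31-fold, 427 ± 49.5 against 559 ± 41.9 CPM), and Anxa4 (1.18-fold). Each of these genes was lower in 6 of 6 cultures, except Hif3a in 5. Without the culture block, Hif3a, Nr1i3, Tmem64, Vps13c, Cyp1a1, Cpt1a, Mal2, Galnt7 and Anxa4 were not called (edgeR adjusted p 0.059 to 0.64).

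The SR and SE cultures were compared because the facilities differ in the microbiota of the donors. In an interaction test over the same 12352 genes, 0 differed between SR and SE (0%), with 451 genes at an unadjusted p under 0.05 and 1 gene called by DESeq2. Leaving out Z909 gave 8 calls, Z912 2 calls and Z913 1 call. The smallest edgeR adjusted p was 0.48, for Trf, the liver-derived transferrin, which had 254 CPM in the T-coded library of Z908 and at most 5.1 CPM elsewhere. Fitted in SR alone, the 185 higher genes kept their sign in 185 cases and the 59 lower genes in 59, and in SE in 183 of 183 and 59 of 59, but those cultures had chosen the genes. The log2 fold change of Nfkbia was 2.65 in SR and 2.75 in SE, that of Clca3b 1.57 and 1.56, that of Olfm4 1.99 and 1.81 and that of Dmbt1 −1.62 and −1.71. With 3 cultures per facility, differences of moderate size could have been missed.

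Organoids of germ-free (GF) mice, 3 cultures with 6 libraries of the same sex, age and strain that the comparison above had not used, carried the same disagreement between label and suffix. In them 109 of 12316 genes were called (0.885%), 90 higher and 19 lower in the T-coded libraries (labelled untreated). Without the culture block 15 were called, and without the GF culture Z918 68 were called. Leaving out Z917 or Z918 reduced the lower genes to 10 and 6. The hepatocyte genes summed to 4.68 to 139 CPM in the T-coded and to 2.66 to 6.18 CPM in the uncoded GF libraries, and their part in these calls was not tested. Of these 109 genes, 91 were among the 244 genes called in SPF organoids, which is 83.5% of the GF and 37.3% of the SPF calls. Of the 185 genes higher in SPF organoids, 183 were tested in GF, 178 had the same sign and 79 were called, with a median log2 fold change of 0.51 against 0.65 in SPF. Of the 59 lower genes, 57 had the same sign and 12 were called, and 0 genes were called in the opposite direction. These genes were chosen by their SPF values, which can enlarge the SPF side of such a comparison. The GF log2 fold change was 2.57 ± 0.15 (SE) for Nfkbia, 2.59 ± 0.19 for Cyba, 1.56 ± 0.08 for Clca3b, 2.07 ± 0.10 for Olfm4, 6.55 ± 0.36 for C3 and −1.16 ± 0.17 for Dmbt1. The difference between GF and SPF was itself called for 0 of 12640 genes (0%), with 2 called by DESeq2, and leaving out the GF culture Z919 gave 1 call. At an unadjusted p under 0.05 there were 465 genes, 29 of them among the 244 called in SPF organoids. Genes called in SPF and far from the threshold in GF, such as Cyp1a1 (2.0-fold lower in SPF, log2 fold change −0.13 in GF) and Grk6 (1.42-fold lower and 0.08), are therefore not shown to differ between them.

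**Figure D5:**
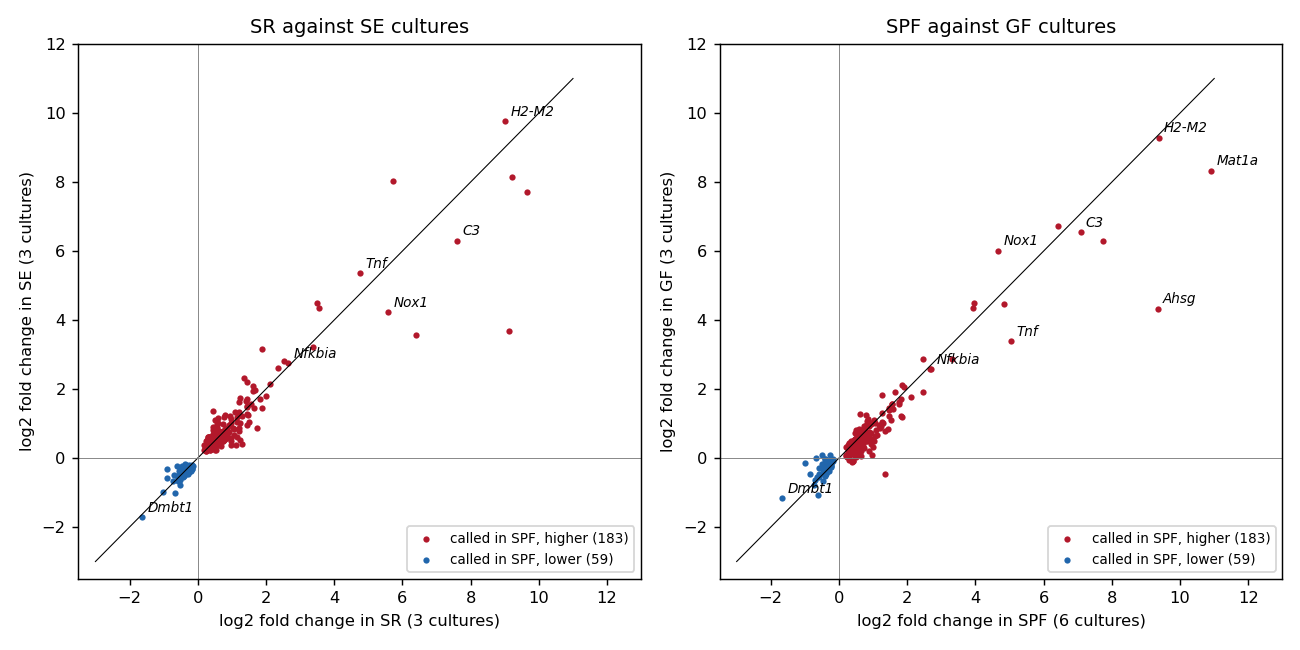
Log2 fold changes (T-coded minus uncoded) of the genes called in SPF organoids, on the left in the SR against the SE cultures and on the right in all SPF against the GF cultures, with the line of equal values. Most points lie near the line, and in the right panel Mat1a (10.91 in SPF and 8.33 in GF) and Ahsg (9.34 and 4.33), which rest on Z908 in SPF, lie below it.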

How the data were processed

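RNA from jejunal organoids was prepared with a polyA-selecting TruSeq kit and sequenced as single-end reads of 125 bp. The deposited files hold raw counts per gene and library, which the authors made with FastQC, Trimmomatic (5 bases removed at the 3′ end) and STAR on GRCm38. STAR 2.5.4b and featureCounts are named in the submitters' processing notes, whereas the methods name another counting package. Use of strand in counting is not given in the sources used here. Groups were taken from the sample labels, and the suffix T set the direction of the difference. Gene positions came from GENCODE (22214 of 22524 genes matched by identifier) and promoter sequences from RefSeq.

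A gene was tested if 50% or more of the libraries on either side had 10 or more counts. Tests were run with edgeR 4.0.16 (R 4.3.3), TMM factors, the quasi-likelihood F-test and culture as a block, and called at a Benjamini-Hochberg adjusted p under 0.05. CPM used effective library sizes. Both libraries of a culture came from the same mouse. The deviations of paired libraries from the mean of their facility and label correlated at 0.071 to 0.188. T-coded and uncoded libraries of different cultures had a mean of −0.0248. Subtracting those means pulls this value below 0 where pairs correlate, so it is no independent baseline. The methods do not state whether the study's own fit had a block. The 12 libraries held 11440041 to 34826223 counts, and floors cover counting error only. The methods were tested on simulated data, and no library was a duplicate of another. Alternatives were DESeq2 1.42.0, RLE factors, no filter on low counts, no block, the study's thresholds, 18 organoid libraries in 1 fit, omission of Lars2 (0.146 to 0.552% of counts), each facility alone and each culture left out.

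Genes were named by a rule: Nfkbia, Cyba and Bcl3, the 20 higher and 12 lower called genes of smallest p with the same sign in 6 of 6 cultures, the 6 called genes of largest fold in each direction, and up to 5 members of each list by p, of which those that missed the threshold are mostly given as counts. The hepatocyte and globin lists were added after their values were seen. Members, lists and rule were chosen with earlier results of these data known. The other 9 libraries of the series were not used here.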

Additional observations from a re-analysis of the deposited data

Results flagged for a closer look

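Single libraries stood far from the others of their side for several of the genes named, 19 times in 198 groups of 6 libraries tested. No chance rate can be set against this count, because the genes were not chosen independently of such values. Mat1a, Ahsg and Hp were named for large fold changes that rest on Z908, and the uncoded flag of Mat1a comes from 1 count. The T-coded library of Z908 (labelled untreated) had 244 CPM of C3 against 19.7 to 59.3 CPM in the other T-coded libraries, 97 CPM of Hp against 0 to 1.55 CPM, 135 CPM of Mat1a against 0 to 1.37 CPM, 105 CPM of Ahsg against 0 to 1.18 CPM and 254 CPM of Trf against 0.405 to 5.1 CPM. This is the library in which 22 hepatocyte genes summed to 2356 CPM. It also had the lowest value of Naip6, at 178 CPM against 255 to 299 CPM.

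Other T-coded libraries set apart were Z909 for Irf1 (32.9 CPM against 23.4 to 26.5 CPM), Z911 for Tnf (20.8 against 7.99 to 11.9 CPM), Z912 for Xiap (134 against 85.7 to 92.9 CPM) and Z913 for Guca2a (511 against 259 to 338 CPM) and Cyp1a1 (42.2 against 7.89 to 19.3 CPM). Among the uncoded libraries (labelled TNF-treated), Z911, the one with the lowest total count, was set apart for Noxo1 (109.9 against 43.3 to 66.4 CPM) and Ifngr1 (201 against 167 to 178 CPM). Z913 was set apart for Guca2b (305 against 134 to 186 CPM) and Mat1a (0.0369 CPM, from 1 count, against 0). Z908 had the highest Gsdmd (8.66 against 6.63 to 7.35 CPM) and Slc27a2 (65.1 against 53.9 to 57.9 CPM), Z912 the highest Trf (4.57 against 0 to 1.52 CPM) and Z910 the lowest Ccnd2 (478 against 559 to 589.6 CPM).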

How the results depend on the processing

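The 244 calls in SPF organoids were 419 with DESeq2 (280 higher, 139 lower in the T-coded libraries, labelled untreated) and 437 at the study's thresholds (284 and 153). The 244 calls were 106 in SR alone (98 and 8) and 105 in SE alone (95 and 10). With no replicate block they were 101 (95 and 6), of which 94 and 6 were among the 185 and 59 genes. Leaving out each culture gave 146 to 237 calls, 124 to 181 higher and 22 to 56 lower, with 104 and 18 genes called in all 6 of these fits. RLE factors, Lars2 left out, 18 libraries in 1 fit and no filter gave 248 to 319 calls. The SR and SE difference had 0 calls, 1 with DESeq2, 7 without the filter and 0 to 8 when a culture was left out. The SPF and GF difference had 0 calls, 2 with DESeq2 and 0 to 1 when a culture was left out. Neither interaction had a call without the block. GF calls fell from 109 to 15 without the block (15 higher, 0 lower) and to between 68 and 90 when a culture was left out (62 to 80 higher, 6 to 18 lower). Without the block, 62 of 99 genes named kept their call or lack of it and 37 lost their call. No direction reversed in these alternatives. The causes were not tested. At 3 counts the floor was 0.0861 to 0.262 CPM. Which genes were tested was set by the filter of 10 or more counts, which left 16 of 28 cytokine and chemokine genes untested.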

Other observations

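The genes below lie outside the gene lists and were chosen after their values were seen, so no theme is drawn from them. Actin-binding and focal adhesion genes were called in both directions between the T-coded (labelled untreated) and the uncoded libraries (labelled TNF-treated). Beside Zyx, Tns3, the focal adhesion protein tensin 3, stood at 213 ± 39.3 against 139.7 ± 17.3 CPM (SD, n = 6; 1.52-fold, edgeR adjusted p = 5.5e-06), and Lasp1, an actin-binding adaptor, at 513 ± 60.7 against 381 ± 43 CPM (1.35-fold, 3.9e-05). For Tns3 and Lasp1 the groups did not overlap. Myh9, a non-muscle myosin heavy chain (1.26-fold, 0.00019), and the filamin Flna (1.36-fold, 0.0027) had overlapping groups but were higher in 6 of 6 cultures. Without the culture block, Myh9 and Flna were not called (0.26 and 0.12). Coro2a, a coronin, and Twf1, a twinfilin, were lower in 6 of 6 cultures (1.27-fold, edgeR adjusted p = 0.0068, and 1.23-fold, 0.015). Neither was called without the block (0.33 and 0.47), and Twf1 was not called without Z909, Z911 or Z913 (0.056 to 0.13).

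Genes of fatty acid and lipid metabolism were also called in both directions. The desaturases Scd1 (1.17-fold, edgeR adjusted p = 0.011) and Scd2 (1.14-fold, 0.008) and Hadh, an enzyme of mitochondrial beta oxidation (1.19-fold, 0.012), were lower in 6 of 6 cultures, beside Cpt1a. These 3 calls were lost without Z913 (0.082 to 0.11), those of Scd2 and Hadh also without Z911 (0.06 and 0.055), that of Hadh without Z912 (0.077), and all 3 without the culture block (0.42 to 0.81). Far2, a fatty acyl-CoA reductase, was higher by 0.72 on the log2 scale (3.7e-06), Slc27a2, a fatty acid transport protein, by 0.62 (0.00041) and Pnpla2, a triglyceride lipase, by 0.57 (0.001), all without overlap and called without the block. Acss1, an acetyl-CoA synthetase, was higher by 0.44 (0.021) and Pnpla3 by 2.11 (0.036). Leaving out Z909, Z912 or Z913 ended both calls, Z911 also that of Acss1 and Z910 that of Pnpla3 (0.073 to 0.28). Pnpla3 was not called without the block (0.33).

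Tmem176a, the neighbour and relative of Tmem176b, rose 1.82-fold from 48.9 ± 10.5 to 87.4 ± 8.63 CPM (edgeR adjusted p = 2.7e-05), and Spata2, an adaptor of the TNF receptor complex, rose 1.59-fold from 47.4 ± 5.95 to 75.4 ± 11.3 CPM (0.0014), both without overlap.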
